A study of Mus musculus with 5 samples.

Results

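Interferon-stimulated genes, the effectors that type I and type II interferons switch on in macrophages, were followed in each library of cardiac macrophages from infarcted hearts. The set was a list of 44 symbols, taken from the count table wherever the symbol of a row equalled a listed one. Of these, 42 were found among the 21289 rows, and all 42 passed the filter on low counts. Mx1 and Mx2 were not analysed here. The cells were CD45+CD64+ cells, sorted by flow cytometry from hearts of male wild-type C57BL/6JGpt mice 7 days after infarction of the myocardium. In the curcumol group (3 samples) the mice had also been given curcumol, a sesquiterpene of Curcuma species, by gavage every day at 30 mg/kg for 7 days, and the untreated group (2 samples) had infarction without curcumol. All 5 samples thus came from infarcted hearts, and no heart without infarction was compared. Going by its title, the study concerns STING and type I interferon signalling, and the comparison asks whether curcumol altered the genes that this response induces. The labels do not say whether a sample was 1 animal or a pool, so the p-values reflect the spread among these 5 samples alone, and that spread may be technical.

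Type I interferon binds the receptor IFNAR and activates the kinases JAK1 and TYK2. The kinases phosphorylate STAT2, which acts with IRF9 in the complex ISGF3. This complex binds the interferon-stimulated response element (ISRE) in the promoters of its target genes, while interferon gamma acts through gamma-activated sites (GAS). The products sense viral RNA, block translation, degrade RNA, modify proteins with ISG15 or ADP-ribose, or attract lymphocytes. In infarcted hearts, DNA from dying cells taken up by macrophages is known to trigger this programme through cGAS, STING and IRF3.

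A core of the ISRE, GAAA followed by any 2 bases and GAAA, was searched on both strands in RefSeq promoter windows (GRCm38.p6) that run from 250 bases before to 50 bases after the start of each gene. Of the 42 genes, 35 had a window, and 18 of these (51.4%) held a match, against 458 of 11442 tested genes with a window (4.003%). The GAS letters TTCNNNGAA were found for 6 of the 35 (17.1%), against 8.34% of tested genes. The kappaB letters, GGGA followed by any 2 bases and TTCC, were found for 3 (8.57%), namely Cxcl10, Ifit2 and Ifitm3, against 1.91% of tested genes. A match describes the letters and is no evidence of binding. Genes with an ISRE match had a median log2 fold change of -0.072 (8 above and 10 below 0) and those with a window but no match -0.21 (8 above and 9 below 0). The 250 bases before the start are shown for 4 genes, 5′ to 3′ in the direction of transcription, with ISRE and kappaB letters of either strand in capitals: Isg15 for its run of overlapping ISRE matches, Ifit3 and Ifit3b as neighbouring copies, and Cxcl10 for its ISRE and kappaB matches, both before the start.
Isg15 (chr4:156200819-156201068, minus strand): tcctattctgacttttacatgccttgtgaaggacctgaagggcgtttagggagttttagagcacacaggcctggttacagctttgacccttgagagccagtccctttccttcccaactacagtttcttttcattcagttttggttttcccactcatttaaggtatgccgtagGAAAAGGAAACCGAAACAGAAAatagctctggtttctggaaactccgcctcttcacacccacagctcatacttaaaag
Ifit3 (chr19:34583279-34583528, plus strand): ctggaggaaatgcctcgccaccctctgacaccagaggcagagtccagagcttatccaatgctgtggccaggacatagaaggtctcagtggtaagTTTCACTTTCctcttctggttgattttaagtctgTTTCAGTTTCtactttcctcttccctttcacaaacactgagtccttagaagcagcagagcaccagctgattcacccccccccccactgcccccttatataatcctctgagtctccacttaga
Ifit3b (chr19:34607707-34607956, plus strand): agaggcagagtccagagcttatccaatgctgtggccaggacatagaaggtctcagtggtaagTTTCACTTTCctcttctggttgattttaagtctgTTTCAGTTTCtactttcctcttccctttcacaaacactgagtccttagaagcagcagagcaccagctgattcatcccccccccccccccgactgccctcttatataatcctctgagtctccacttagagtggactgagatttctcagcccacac
Cxcl10 (chr5:92348890-92349139, minus strand): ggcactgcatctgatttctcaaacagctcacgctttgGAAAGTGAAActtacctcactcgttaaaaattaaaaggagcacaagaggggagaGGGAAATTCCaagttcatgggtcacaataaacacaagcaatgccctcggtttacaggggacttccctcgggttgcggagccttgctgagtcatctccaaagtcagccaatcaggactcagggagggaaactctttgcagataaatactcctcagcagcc
In Isg15 the 3 ISRE matches began 78, 72 and 66 bases before the start and overlap in 1 run. In Ifit3 they began 156 and 122 bases before the start and in Ifit3b 188 and 154 bases before it. The upstream stretches of Ifit3 and Ifit3b were identical at 188 of 218 bases (86.2%) when shifted by 32 bases. In Cxcl10 the ISRE began 213 and the kappaB match 159 bases before the start.

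Libraries held 39768705 to 43315822 counts. They differed in how many genes had any count, 17078 to 18501 in curcumol libraries against 12243 and 12915 in untreated libraries. All 9 macrophage markers examined had counts in every library, among them Fcgr1, which encodes CD64, at 329, 300.1 and 249.5 CPM with curcumol and 349 and 373 CPM without. Levels are counts per 1e6 counts of a library (CPM), with library totals corrected for composition by TMM factors, and are given for curcumol replicates 1, 2 and 3 and untreated replicates 1 and 2 in that order. Each log2 fold change is given as curcumol minus untreated, with its SE, from edgeR's quasi-likelihood test, with p-values adjusted by the Benjamini-Hochberg method over all 14508 tested genes.

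No interferon-stimulated gene passed an adjusted p of 0.05 in edgeR, while 0.207% of all tested genes did. The fold changes were split evenly, with 21 above and 21 below 0 (25 and 17 with total counts as the scaling) and a median of 0.000215, where all tested genes had a median of 0.15. At an unadjusted p under 0.05 there were 6 genes of the 42, of which Siglec1, Dtx3l and Samd9l were higher and Cxcl10, Lgals9 and Nmi lower with curcumol, while 24.6% of all tested genes were past that mark (18.1% higher and 6.51% lower). Curcumol and untreated libraries were fully separated, with no overlap, for 10 of the 42, of which 5 were higher (Ifit2, Samd9l, Parp14, Dtx3l and Siglec1) and 5 lower (Oas1a, Nmi, Ifi35, Cxcl10 and Lgals9). That is 23.8% of the 42, against 44.4% of all tested genes. DESeq2 called 5 of the 42 (Siglec1, Dtx3l, Samd9l, Cxcl10 and Lgals9), where it called 16.3% of all genes it tested. Limma-voom called none of the 42, though over all genes it called many more than edgeR, as given below. By direction, 29.5% of all tested genes did not overlap upward and 14.9% downward. With total counts as the scaling, an alternative added after the data were seen, Ifit3b also separated upward while Oas1a and Ifi35 overlapped. That gave 6 higher and 3 lower, against 36.6% of all tested genes upward and 9.31% downward (45.9% in all). In bulk samples fewer cells of a type and less RNA per cell cannot be told apart.

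**Figure D1:**
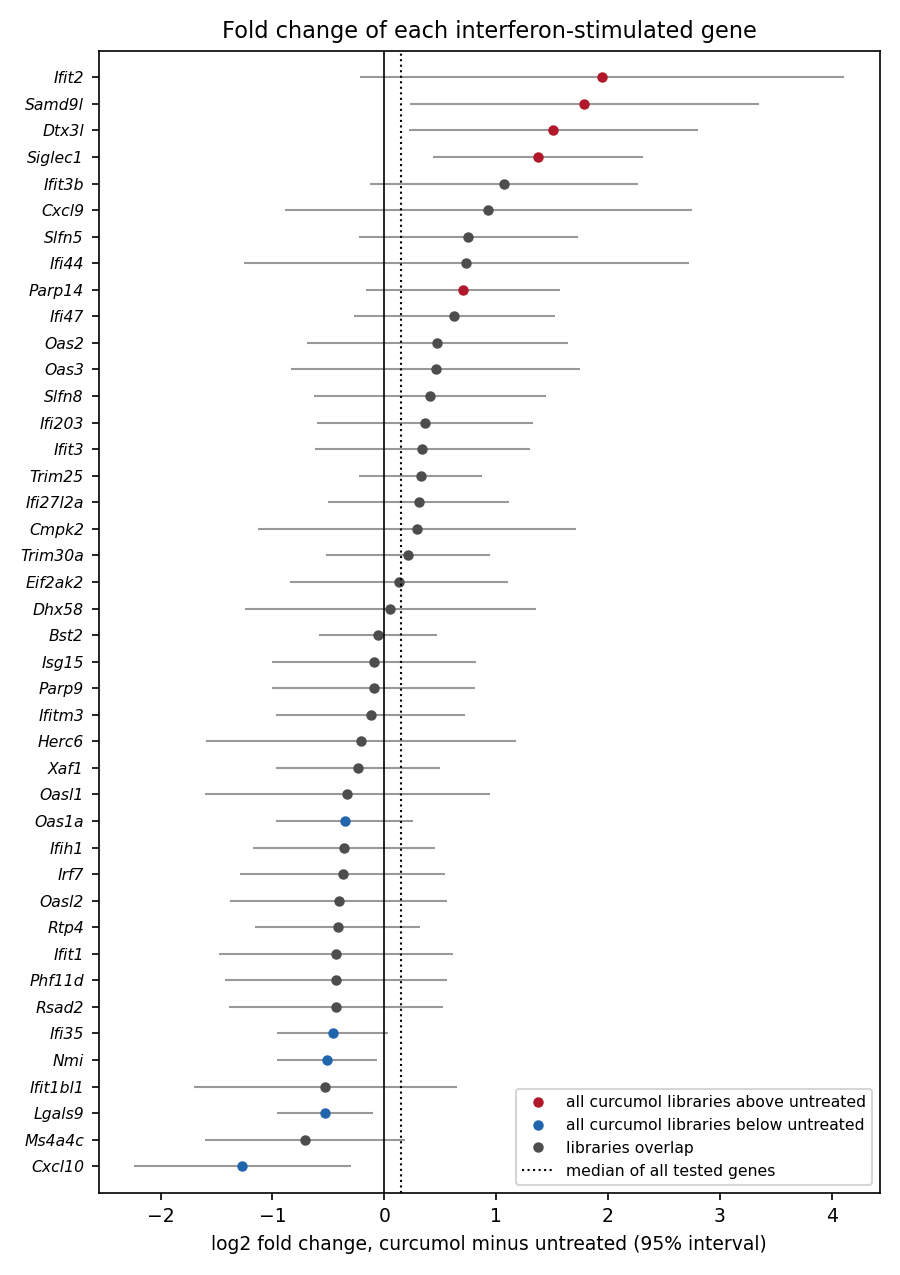
Log2 fold change (curcumol minus untreated, x axis) of each of the 42 genes, with its 95% interval; colours mark genes whose libraries did not overlap, and the dotted line is the median of all tested genes (0.15). The fold changes run from -1.27 for Cxcl10 to 1.95 for Ifit2, with 21 on each side of 0.

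Libraries of the same group differed widely in both groups. Curcumol replicate 3 was the lowest curcumol library for 41 of the 42 genes (97.6%). Among 8370 other tested genes in the same range of average level it was the lowest for 38.3%. The exception was Trim25. For 27 of the 42 (64.3%) it was the lowest of all 5 libraries, against 16.6% of those other genes. Curcumol replicate 2 was highest of the 5 for 16 genes, untreated replicate 2 for 16, curcumol replicate 1 for 6, untreated replicate 1 for 4 and curcumol replicate 3 for none. The summed level of the 42 genes was 5538, 5313 and 2888 CPM in the curcumol libraries and 4689 and 5293 CPM in the untreated libraries, so that the untreated sums lay inside the curcumol range. For 10 of the 42 (23.8%) the curcumol range enclosed both untreated libraries, against 11.5% of the other genes.

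Differences between libraries of a group were computed for each gene on log2(CPM + 1) with counts scaled to library totals alone. Curcumol replicate 3 minus replicate 1 had a median of -0.76 over the 42 genes (-1.60 to 0.32) and curcumol replicate 3 minus replicate 2 a median of -1.06 (-2.21 to -0.08). Other genes of the same range had medians of 0.028 and -0.045 for these pairs. Curcumol replicate 2 minus replicate 1 had a median of 0.21 with 27 of 42 above 0, and the other genes 0.046. The untreated libraries also differed: replicate 2 minus replicate 1 had a median of 0.49 with 32 of 42 above 0 (30 with TMM factors), and the other genes 0.024. The ratio of the highest to the lowest library, taken on CPM + 1, had a median of 2.26 in the curcumol group and 1.44 in the untreated group, against 1.34 and 1.32 for other genes. The larger of these 2 ratios exceeded the ratio of the group means for 37 of 42 (88.1%), against 73.0% of other genes. The curcumol ratio covers 3 libraries and the untreated ratio 2, so the former tends to be larger. Over the 42 genes the SD of the pair differences was 0.40 to 0.47 for curcumol pairs and 0.77 for the untreated pair. For other genes it was 0.42 to 0.47 and 0.88. These pairs are single libraries, so no test was made of them.

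**Figure D2:**
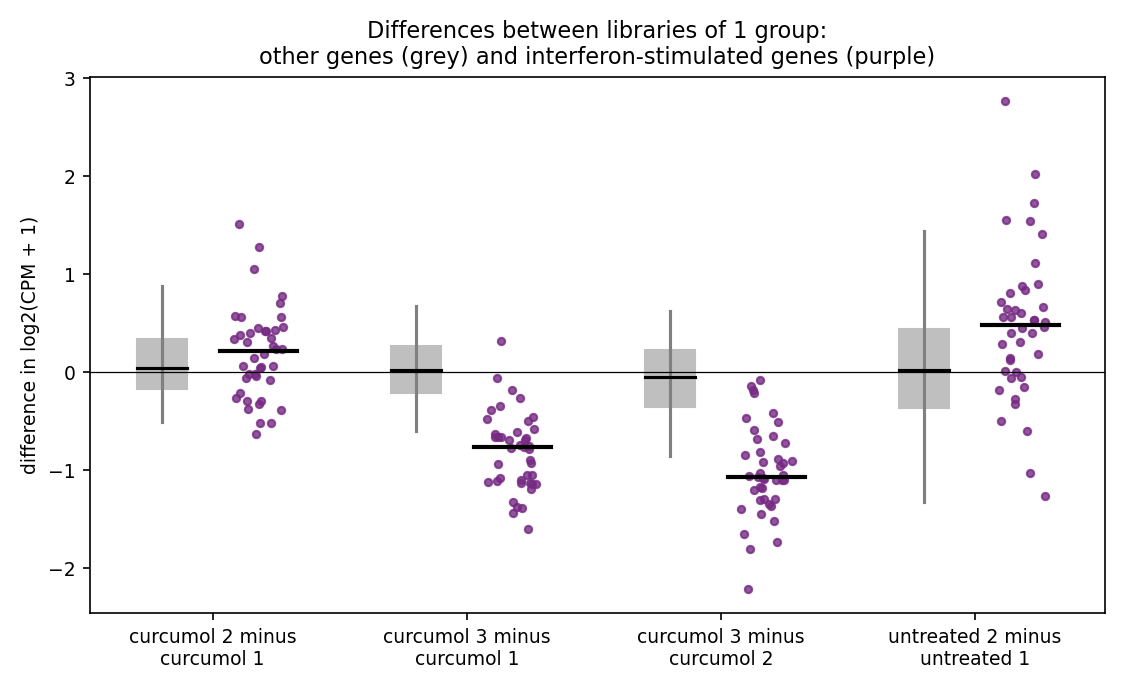
Difference in log2(CPM + 1) between each pair of libraries of 1 group (y axis), for the 42 interferon-stimulated genes (purple points, black bar at their median) and for 8370 other genes of the same range of level (grey box from the 25th to the 75th percentile, line from the 5th to the 95th, black bar at the median). Medians of the 42 genes are 0.21, -0.76, -1.06 and 0.49 from left to right, and those of the other genes lie between -0.045 and 0.046.

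**Figure D3:**
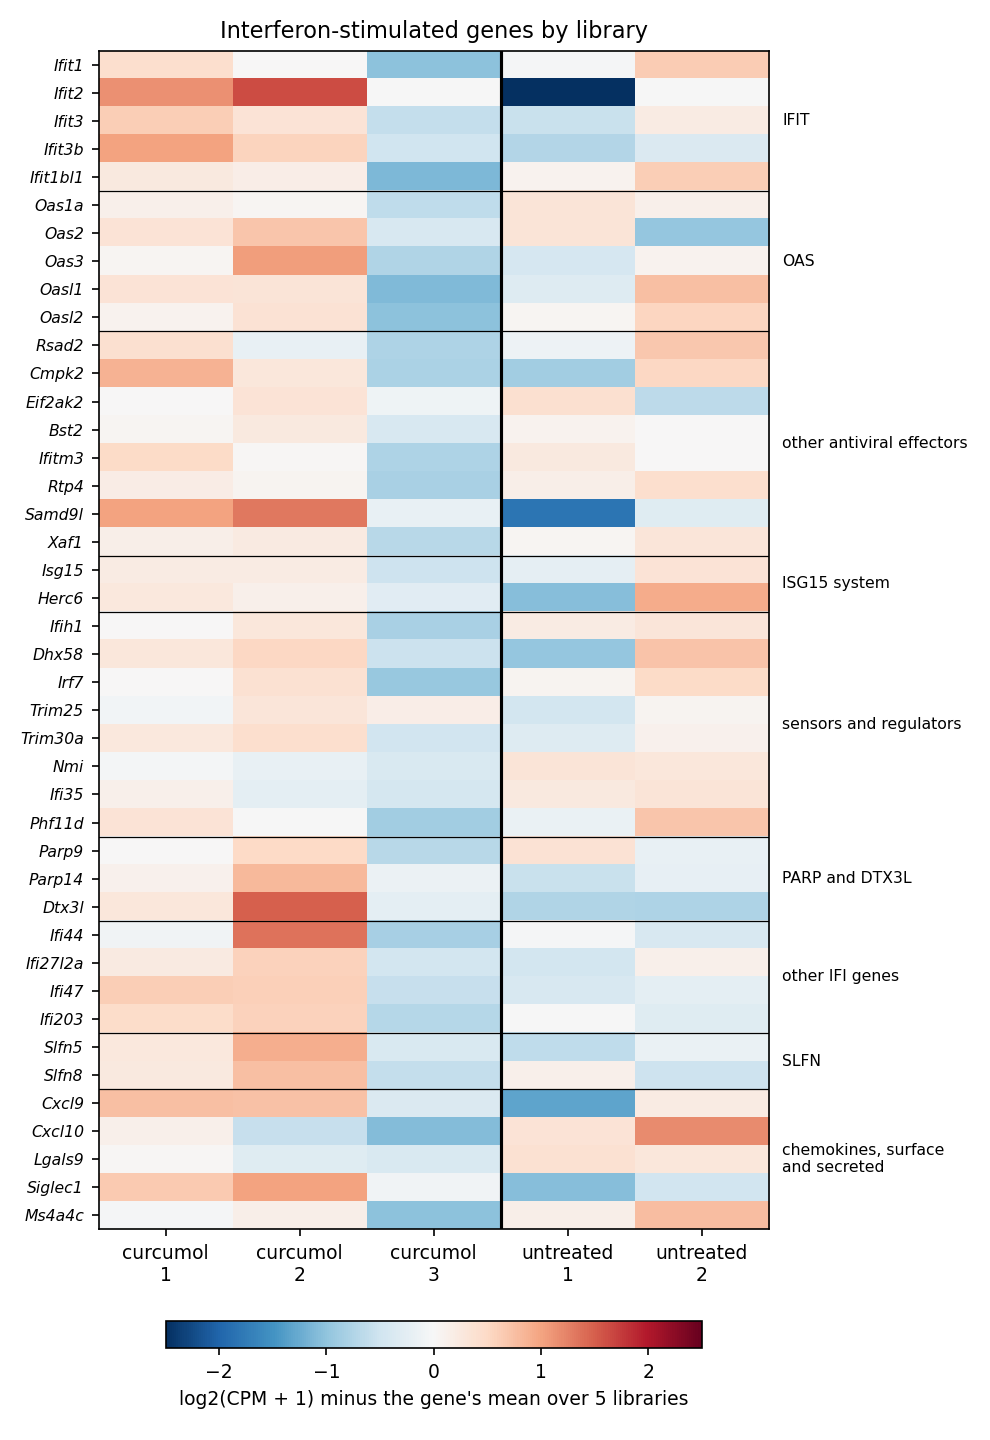
Level of each gene (rows, by subfamily) in each library (columns), as log2(CPM + 1) minus that gene's mean over the 5 libraries; red is above and blue below that mean. The column of curcumol replicate 3 is the lowest of the curcumol columns in every row but Trim25.

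Among secreted and surface proteins, the 2 chemokines that attract T cells through CXCR3 stood apart from each other. Cxcl10 (NCBI gene 15945) had 96.9, 59.5 and 41.6 CPM in curcumol libraries and 113 and 204 CPM in untreated libraries. All curcumol libraries were below both untreated ones, but curcumol replicate 1 and untreated replicate 1 were close. The log2 fold change of -1.27 ± 0.40 had an adjusted p of 0.112 in edgeR. With 1 library left out the log2 fold change ranged from -1.65 to -0.76. Cxcl9 had 11.9, 11.7 and 5.004 CPM with curcumol and 2.08 and 7.93 CPM without, and these overlap. Its log2 fold change of 0.93 had an adjusted p of 0.523 in edgeR and became 2.22 without untreated replicate 2. That fit left 1 untreated library, which was assumed to vary like the others. Siglec1 (NCBI gene 20612), a sialic acid receptor of resident macrophages, had the smallest p of all 42 genes. It stood at 53.8, 68.8 and 31.9 CPM with curcumol and 15.6 and 24.1 CPM without, with no overlap, a log2 fold change of 1.38 ± 0.39 (95% interval 0.43 to 2.32) and an adjusted p of 0.0878 in edgeR. With 1 library left out its log2 fold change ranged from 1.10 to 1.74, and its adjusted p ranged from 0.0112 to 0.262 over alternatives. Lgals9, which encodes the lectin galectin-9, a ligand of the checkpoint receptor TIM-3, had 455, 360.4 and 341 CPM with curcumol and 575 and 538 CPM without, also with no overlap (log2 fold change -0.53 ± 0.18, edgeR adjusted p = 0.127). Ms4a4c, a membrane protein of the MS4A family, had 170.2, 192 and 84.6 CPM with curcumol and 191 and 295 CPM without (adjusted p = 0.303 in edgeR). Here untreated replicate 2 was high and curcumol replicate 3 low.

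Siglec1 is itself high in resident macrophages, whose 7 other markers summed to 4188, 3531 and 2057 CPM in curcumol libraries and 1445 and 1283 CPM in untreated libraries. All 7 had positive fold changes and none passed an adjusted p of 0.05 in edgeR. Of the 7, 4 were higher without overlap (57.1%), against 29.5% of all tested genes. At an unadjusted p under 0.05 in edgeR there were 5, where 18.1% of all tested genes were higher at that mark. The smallest p was that of Mrc1, at 647, 676 and 378 CPM with curcumol and 164 and 173 CPM without (edgeR adjusted p = 0.0637). Lyve1, a hyaluronan receptor of resident macrophages, had 431, 388 and 92.8 CPM with curcumol and 82.6 and 104 CPM without, so that curcumol replicate 3 lay within the untreated range. The scavenger receptor Cd163 had 192, 299 and 78.7 CPM with curcumol and 39.1 and 29.6 CPM without. Of the 9 macrophage markers, 3 were higher and 3 lower without overlap (66.7%), and none passed an adjusted p of 0.05 in edgeR. Of all tested genes 44.4% did not overlap, 29.5% upward and 14.9% downward. Their smallest p were those of Cd68, a lysosomal protein, at 2061, 1732 and 2029 CPM with curcumol and 3670.4 and 3172 CPM without, of Mertk, a receptor for apoptotic cells, at 62.2, 139 and 77.4 CPM with curcumol and 32.8 and 39.5 CPM without, and of the integrin Itgam at 269, 428 and 180.1 CPM with curcumol and 138 and 91.99 CPM without. Curcumol replicate 3 was the lowest curcumol library for Itgam, Csf1r, Ptprc, Fcgr1, C1qa, Lyz2 and Adgre1, but not for Cd68 and Mertk. The 9 markers summed to 34440, 31656 and 28850 CPM with curcumol and 35093 and 35174 CPM without. Most of each sum was Lyz2 alone, at 24144, 21687 and 20527 CPM with curcumol and 24995 and 26055 CPM without. The mean log2(CPM + 1) of the 9 markers was 9.999, 10.15 and 9.68 with curcumol and 9.74 and 9.63 without, and these overlap. The part of these markers in the levels of the interferon-stimulated genes was not tested.

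RNA sensors and regulators had 3 genes above and 5 below 0, with a median of -0.37. Nmi (NCBI gene 64685) and Ifi35, which bind each other, had the smallest p of these. Nmi had 48.7, 43.97 and 38.6 CPM with curcumol and 63.2 and 61.4 CPM without (log2 fold change -0.51 ± 0.19, edgeR adjusted p = 0.153). Ifi35 had 115, 89.1 and 77.1 CPM with curcumol and 125 and 132 CPM without (edgeR adjusted p = 0.231). In both genes the groups did not overlap, though for Ifi35 they did with total counts, and the untreated libraries lay close together. Irf7, the transcription factor that amplifies interferon production, was the most abundant of this subfamily by count, at 231, 301 and 118 CPM with curcumol and 241 and 320.5 CPM without (log2 fold change -0.37 ± 0.38, 95% interval -1.29 to 0.54). Curcumol replicates 1 and 2 were within or near the untreated range for Irf7, and replicate 3 was below it. The cytosolic RNA sensor Ifih1, which encodes MDA5, had 42.1, 51.4 and 23.6 CPM with curcumol and 48.1 and 52.01 CPM without. Dhx58, which encodes the related helicase LGP2, had 60.8, 71.9 and 33.8 CPM with curcumol and 24.8 and 82.1 CPM without. For Dhx58 the 2 untreated libraries lay outside the whole curcumol range, 1 on each side. Trim25, an E3 ligase that acts on RIG-I, had 73.1, 96.1 and 87.03 CPM with curcumol and 55.7 and 80.5 CPM without, and was the gene in which curcumol replicate 3 was not the lowest of its group. Trim30a, a regulator of Toll-like receptor signalling, and Phf11d had fold changes of 0.21 ± 0.30 and -0.43 ± 0.41.

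The IFIT genes, whose products bind viral RNA and limit its translation, differed by library in the same way. Their mean log2(CPM + 1) was 5.93, 5.78 and 4.59 in curcumol libraries and 4.44 and 5.46 in untreated libraries. Each of the 5 was higher in untreated replicate 2 than in replicate 1, and each was lowest among curcumol libraries in replicate 3. Ifit2 (NCBI gene 15958) had 79.8, 113 and 35.4 CPM with curcumol and 4.36 and 35.00 CPM without. The groups did not overlap, but curcumol replicate 3 and untreated replicate 2 were nearly equal. Its log2 fold change of 1.95 ± 0.90 had an adjusted p of 0.244 in edgeR. Without untreated replicate 2 the log2 fold change was 4.14. Ifit3b had 35.7, 25.9 and 11.96 CPM with curcumol and 10.04 and 13.3 CPM without (adjusted p = 0.246 in edgeR). Ifit3, the most abundant by count, had 161, 132 and 69.2 CPM with curcumol and 70.5 and 120.4 CPM without (log2 fold change 0.34 ± 0.40). The copies Ifit3 and Ifit3b share much of their transcripts: of the 31-base windows of Ifit3, 61.8% also occur in Ifit3b, so their reads may have been split or dropped in counting. Ifit1 had 75.8, 57.4 and 27.4 CPM with curcumol and 55.3 and 88.9 CPM without, and Ifit1bl1 21.5, 20.3 and 7.66 CPM with curcumol and 19.3 and 28.2 CPM without. In both of these the lowest of all 5 libraries was curcumol replicate 3 and the highest was untreated replicate 2.

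Most OAS proteins sense double-stranded RNA and make the oligoadenylate that activates the ribonuclease RNase L. Oas1a was the only one of the 5 whose groups did not overlap, at 143, 134 and 83.8 CPM with curcumol and 164 and 143 CPM without (log2 fold change -0.35 ± 0.25, edgeR adjusted p = 0.464). Curcumol replicate 1 and untreated replicate 2 were nearly equal for Oas1a, and with total counts the groups overlapped. Oas1a shares 68.0% of its 31-base windows with Oas1g, so its counts are uncertain. Oasl2, the most abundant by count, had 177, 214 and 80.9 CPM with curcumol and 173 and 243 CPM without (log2 fold change -0.41 ± 0.40). Oasl1, which restrains translation of Irf7, had 41.8, 41.4 and 14.7 CPM with curcumol and 25.98 and 55.9 CPM without. In both, curcumol replicates 1 and 2 lay within the untreated range and replicate 3 was the lowest library. Oas2 had 47.2, 60.8 and 28.02 CPM with curcumol and 46.8 and 18.4 CPM without, where untreated replicate 2 was the lowest library, and Oas3 had 28.7, 57.5 and 15.9 CPM with curcumol and 20.4 and 29.1 CPM without, where curcumol replicate 2 was the highest.

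Other antiviral effectors had 3 genes above and 5 below 0 (5 and 3 with total counts). Samd9l (NCBI gene 209086), an inhibitor of translation and cell growth, had 50.7, 63.2 and 21.5 CPM with curcumol and 6.23 and 19.9 CPM without. The groups did not overlap, with a narrow gap between curcumol replicate 3 and untreated replicate 2. The log2 fold change of 1.79 ± 0.65 (95% interval 0.23 to 3.35) had an adjusted p of 0.1503 in edgeR. With 1 library left out the log2 fold change ranged from 1.19 to 2.87. Ifitm3, which blocks the fusion of viruses with endosomes, had 1759.7, 1290.0 and 736 CPM with curcumol and 1479 and 1264 CPM without. The curcumol libraries enclosed both untreated ones, and the log2 fold change of -0.12 ± 0.35 became 0.060 with total counts as the scaling. Per kilobase of its longest coding transcript, Ifitm3 was also the most abundant of the 42 genes, at 1926 CPM per kilobase over the 5 libraries. It was followed by Ifi27l2a at 544 and Lgals9 at 286 CPM per kilobase, and the lowest were Cxcl9 at 2.68 and Ifi44 at 2.43. Rtp4, a chaperone of membrane receptors, had 209, 193 and 104 CPM with curcumol and 205 and 246 CPM without (log2 fold change -0.42 ± 0.31). Rsad2, which encodes viperin, had 77.3, 51.01 and 33.7 CPM with curcumol and 52.97 and 92.8 CPM without, and its neighbour Cmpk2, a mitochondrial nucleotide kinase, had 63.4, 41.8 and 19.3 CPM with curcumol and 18.3 and 49.3 CPM without. In both, curcumol replicate 1 was the highest of its group and untreated replicate 2 was above replicate 1. Bst2 (tetherin, log2 fold change -0.054 ± 0.22, which became 0.13 with total counts), the kinase Eif2ak2 (0.13 ± 0.40) and Xaf1 (-0.24 ± 0.30) had 95% intervals from -0.58 to 0.47, -0.84 to 1.11 and -0.97 to 0.49.

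Isg15, the ubiquitin-like modifier, and Herc6, which ligates it to proteins in mice, showed no separation by group. Isg15 (NCBI gene 100038882) had 19.4, 19.3 and 11.3 CPM with curcumol and 14.1 and 21.4 CPM without. Its log2 fold change of -0.090 ± 0.38, with a 95% interval of -1.001 to 0.82, became 0.090 with total counts. Herc6 had 28.2, 25.7 and 19.1 CPM with curcumol and 10.7 and 45.5 CPM without, so that the untreated libraries enclosed all curcumol libraries. Without untreated replicate 2 the log2 fold change of Herc6 was 1.21 and without replicate 1 it was -0.90, against -0.21 with all 5 libraries.

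The ADP-ribosyltransferases Parp9 and Parp14 and Dtx3l, the E3 ligase that pairs with PARP9, were highest in curcumol replicate 2. Dtx3l (NCBI gene 209200) had 38.5, 90.1 and 26.4 CPM with curcumol and 18.3 and 17.96 CPM without. Its groups did not overlap, with the untreated libraries close together and replicate 2 far above the other curcumol libraries. The log2 fold change of 1.51 ± 0.54 (edgeR adjusted p = 0.143) was 0.84 without curcumol replicate 2. Parp14 had 29.2, 48.3 and 24.4 CPM with curcumol and 18.1 and 23.5 CPM without, also with no overlap (log2 fold change 0.71 ± 0.36, edgeR adjusted p = 0.288). Parp9 had 47.9, 68.04 and 29.1 CPM with curcumol and 61.3 and 41.9 CPM without, where the curcumol libraries enclosed the untreated ones and the log2 fold change of -0.093 ± 0.38 became 0.10 with total counts.

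The Schlafen genes and the remaining IFI genes had positive fold changes in all 6 cases, none past the threshold. Slfn5 had 48.2, 75.5 and 30.4 CPM with curcumol and 25.4 and 35.6 CPM without (log2 fold change 0.75 ± 0.41), and Slfn8 had 50.3, 71.8 and 27.4 CPM with curcumol and 45.9 and 29.01 CPM without (0.41 ± 0.43). Both were highest in curcumol replicate 2. Ifi47, an immunity-related GTPase, had 163, 162 and 71.01 CPM with curcumol and 80.9 and 89.9 CPM without (log2 fold change 0.63 ± 0.37). Curcumol replicates 1 and 2 were alike and above the untreated libraries, while replicate 3 was below both. Ifi27l2a, a mitochondrial protein and the most abundant of these IFI genes by count, had 282, 360.1 and 176 CPM with curcumol and 175 and 266 CPM without, with curcumol replicate 3 close to untreated replicate 1. Ifi203, of the family of DNA-binding HIN-200 proteins, had 69.95, 75.8 and 30.5 CPM with curcumol and 50.7 and 40.6 CPM without. Ifi44 was the scarcest, at 5.54, 16.8 and 2.91 CPM with curcumol and 5.83 and 4.298 CPM without, where curcumol replicate 2 stood apart (log2 fold change 0.73 ± 0.83).

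**Figure D4:**
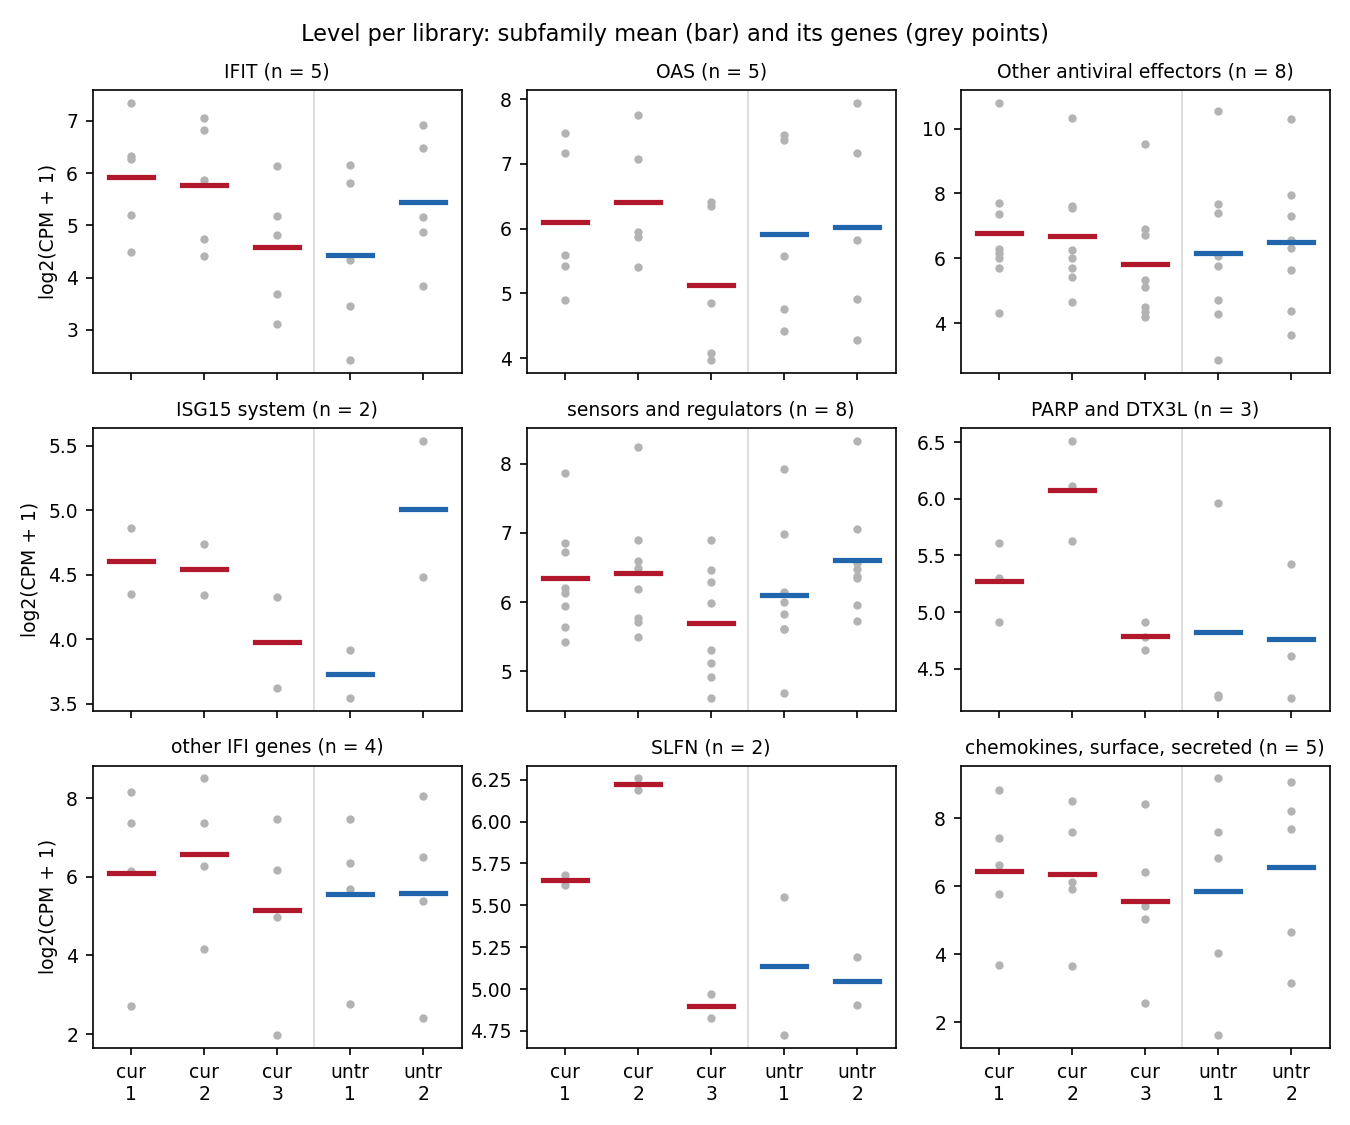
Level in log2(CPM + 1) of each gene (grey points) and mean of its subfamily (bars, red for curcumol and blue for untreated libraries) in each library, in 9 panels with their own y axes. The bar of curcumol replicate 3 is the lowest of the curcumol bars in each panel, and the IFIT bars stand at 5.93, 5.78 and 4.59 with curcumol and 4.44 and 5.46 without.

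Curcumol replicate 1 was the highest of its group for 19 genes, including 4 of 5 IFIT genes, Isg15 and Herc6. Curcumol replicate 2 was the highest for 23, including all of Parp9, Parp14, Dtx3l, Slfn5 and Slfn8. Transcript length moved with this difference: across the 42 genes, curcumol replicate 2 minus replicate 1 had a Spearman's rho of 0.56 with length, and across 8218 other genes of the same range 0.44. For curcumol replicate 3 minus replicate 2 rho was -0.36 and -0.41, and for curcumol replicate 3 minus replicate 1 it was 0.21 and 0.00205. For untreated replicate 2 minus replicate 1 it was 0.044 and 0.011. These are correlations across genes of the same libraries, which are not independent.

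Length also moved with the log2 fold change. Across the 42 genes rho was 0.51, and across 13304 tested genes with a length it was 0.22. The 19 genes with transcripts of 3000 bases or more had a median log2 fold change of 0.36 with 14 above 0, while all tested genes of that length had 0.42 with 68.4% above 0. The 16 of 1500 to 3000 bases had a median of -0.34, against -0.076 for all tested genes, and the 7 shorter ones -0.12, against -0.040. Siglec1, Samd9l, Dtx3l, Parp14 and Ifit2, which did not overlap upward with TMM factors, have transcripts of 6387, 5330, 5309, 7417 and 3818 bases. Cxcl10, Lgals9, Nmi, Ifi35 and Oas1a, which did not overlap downward with TMM factors, have 1353, 1586, 1291, 1362 and 1885 bases. The part of length in these differences was not tested. By level, the 9 genes at an average log2 CPM of 7 or more had a median fold change of -0.37 with 1 above 0. All tested genes of that level had -0.19. The 7 genes at 6 to 7 had 0.21, against -0.098 for all tested genes of that level. The 17 genes at 5 to 6 had 0.29, against -0.022, and the 9 genes under 5 had 0.46, against 0.42.

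**Figure D5:**
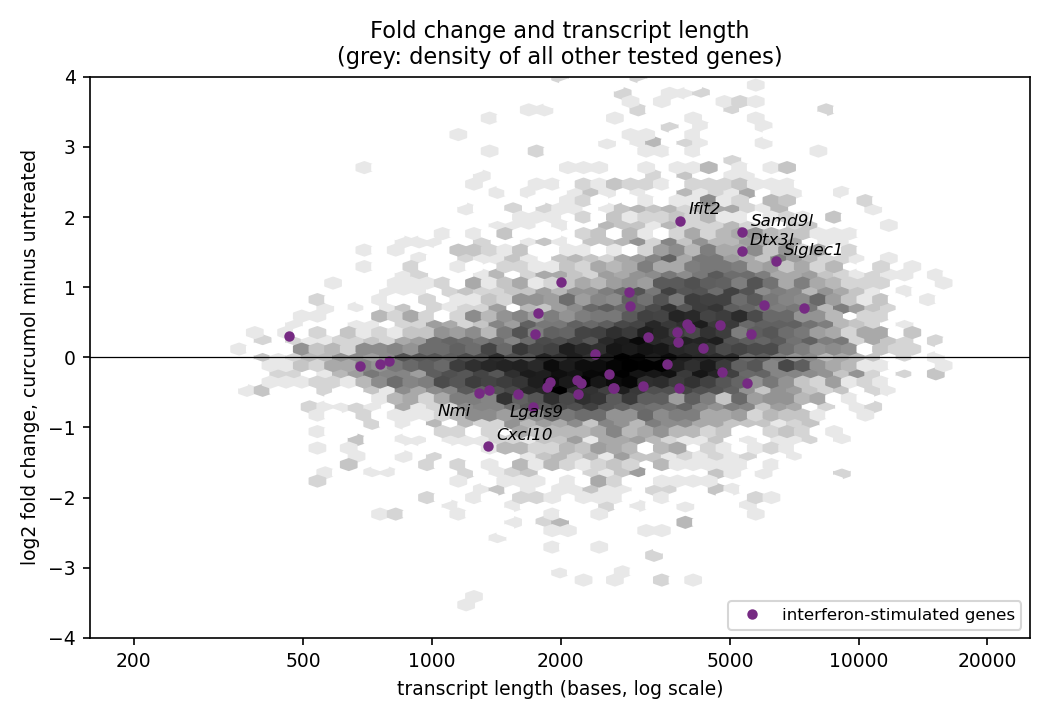
Log2 fold change (curcumol minus untreated, y axis) against transcript length (x axis, log scale) for the 42 interferon-stimulated genes (purple) over the density of all other tested genes with a length (grey hexagons, darker for more genes; genes beyond 4 in either direction are not drawn). Spearman's rho is 0.51 for the 42 genes and 0.22 for all tested genes with a length.

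Genes upstream of this response were taken from a list of 17 that were all tested, with 10 above and 7 below 0. None passed in edgeR, and 4 had an unadjusted p under 0.05, where 24.6% of all tested genes did. Of the 17, 5 were higher and 3 lower without overlap (47.1%), against 44.4% of all tested genes. Ifnb1, which encodes interferon beta, had 0.741, 0.454 and 0 CPM in curcumol libraries and 9.61 and 37.2 CPM in untreated libraries (log2 fold change -5.87 ± 1.40, edgeR adjusted p = 0.0725). The kinase Jak1 had 196, 272 and 172 CPM with curcumol and 88.9 and 117 CPM without (edgeR adjusted p = 0.0731). The signalling inhibitor Socs3 had 345, 246 and 417 CPM with curcumol and 556 and 529 CPM without (edgeR adjusted p = 0.132). Adar, an RNA-editing enzyme, had 25.8, 57.03 and 27.2 CPM with curcumol and 2.84 and 16.8 CPM without (edgeR adjusted p = 0.201). These 4 and Tyk2, Ifnar1, Irf3 and Cgas were the 8 without overlap. Of the genes of ISGF3, Stat2 had 58.5, 80.9 and 36.6 CPM with curcumol and 2.59 and 40.4 CPM without, and Irf9 had 123, 116 and 70.2 CPM with curcumol and 82.3 and 83.4 CPM without. In both, curcumol replicate 3 was the lowest curcumol library. Sting1 had 177, 133 and 132 CPM with curcumol and 152 and 132 CPM without.

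A second list of interferon-stimulated genes, outside the 42, had 41 genes tested, with 23 above and 18 below 0, a median of 0.084 and none past the threshold in edgeR. Its smallest p were those of Parp10, at 38.9, 40.7 and 30.9 CPM with curcumol and 12.2 and 15.6 CPM without (edgeR adjusted p = 0.0651), Mov10, an RNA helicase, at 21.2, 24.5 and 15.03 CPM with curcumol and 10.2 and 4.605 CPM without, and the exonuclease Isg20 at 33.8, 26.8 and 21.8 CPM with curcumol and 48.2 and 41.6 CPM without. The summed level of this list was 7367, 7837 and 4778 CPM in curcumol libraries and 6088 and 6436 CPM in untreated libraries, so that curcumol replicate 3 was again the lowest.

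Markers of other cells were summed in each library. Zeros were common in untreated libraries: of the 14508 tested genes, 2808 and 2415 were at 0 in untreated replicates 1 and 2. In curcumol replicates 1, 2 and 3 these were 161, 152 and 52 genes. The 10 neutrophil markers summed to 3538, 1572 and 3079.7 CPM with curcumol and 394 and 422 CPM without. Of them 2, Camp and Ngp, passed an adjusted p of 0.05 in edgeR, where 0.207% of all tested genes did. Camp and Ly6g were at 0 in both untreated libraries. The 7 fibroblast markers summed to 131, 156 and 329 CPM with curcumol and 36.8 and 28.96 CPM without, with Lum and Dcn past the threshold and Lum and Pdgfra at 0 in both untreated libraries. The 7 endothelial markers summed to 58.1, 111 and 77.5 CPM with curcumol and 24.5 and 32.3 CPM without, and Egfl7, Esam, Tie1 and Cdh5 were at 0 in both untreated libraries. Of plasmacytoid dendritic cells, which secrete type I interferon, 5 markers summed to 21.2, 17.6 and 26.5 CPM with curcumol and 2.46 and 14.8 CPM without, and Siglech was at 0 in both untreated libraries. T and NK cell markers summed to 51.3, 104 and 78.8 CPM with curcumol and 46.4 and 45.8 CPM without over 10 genes, and Ifng, which encodes interferon gamma, had 0.119, 2.13 and 0.564 CPM with curcumol and was at 0 in both untreated libraries, as was Ncr1. B cell markers summed to 98.6, 66.5 and 91.6 CPM with curcumol and 54.7 and 36.5 CPM without over 4 genes, cardiomyocyte markers to 72.01, 87.6 and 93.5 CPM with curcumol and 19.3 and 48.9 CPM without over 7 (Ttn and Ryr2 at 0 in both untreated libraries), and recruited monocyte markers to 2064, 828 and 1319 CPM with curcumol and 1569 and 1462 CPM without over 6. Genes induced by tissue dissociation were all 11 lower with curcumol by fold change, with Hspa1a past the threshold, and summed to 14497, 9292 and 16213 CPM with curcumol and 32964 and 34681 CPM without. Curcumol replicate 3 had the highest sums of the fibroblast, plasmacytoid dendritic, cardiomyocyte and dissociation lists within its group. For the plasmacytoid dendritic list this sum followed Ly6d (11.5, 6.56 and 14.0 CPM with curcumol) and Cox6a2 (4.01, 5.04 and 7.99 CPM). Siglech, at 4.13, 4.77 and 3.43 CPM with curcumol, and Pacsin1 were instead lowest of the group in curcumol replicate 3, and Ccr9 lay between. The part of these cells and of dissociation in the levels of the interferon-stimulated genes was not tested.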

How the data were processed

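The authors deposited whole-number counts per gene, without normalization. The submitters' processing notes list Bowtie2, fastp, HISAT2 and HTSeq. Their versions, the genome build and the annotation are not stated in the labels or the file. The labels' protocols name a VAHTS Universal kit but the design text names TruSeq with strand marking, so whether counting used strand is not settled. Columns were tied to samples by title. The genes, their subfamilies, the other lists and the tests were chosen with earlier results of these data known.

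All genes were fitted together with edgeR 4.0.16 under R 4.3.3, after filterByExpr (minimum count 10) and TMM scaling. The model held group alone, which left 3 residual degrees of freedom. Tests were two-sided, with a threshold of 0.05 on Benjamini-Hochberg adjusted p. The fit was tested on simulated data. Exact permutation of 3 and 2 samples gives no p below 0.1, so none was used. Values in every library are given, in each subfamily, for the 2 genes with the smallest p, the one with the highest mean CPM, those that did not overlap with an unadjusted p under 0.05 and those with a sequence shown. Other genes given with values, among them Stat2, Irf9, Sting1, Adar, Cd68, Mertk, Itgam, Lyz2, Mrc1, Siglech, Ly6d, Cox6a2 and Ifng, were chosen after values were seen. So were the groupings by length, level and ISRE match. Library pairs were compared on log2(CPM + 1) with total-count scaling. Transcript lengths and shared 31-base windows came from GENCODE M21, with the longest coding transcript of each gene name (91.7% of tested genes); 10 of the 42 genes shared over 10% of their windows with other coding genes. Alternatives used DESeq2 1.42.0, limma 3.58.1 and other scalings and filters. At these library totals, 3 counts correspond to 0.0767 CPM or less, and such limits cover counting error only.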

Additional observations from a re-analysis of the deposited data

How the results depend on the processing

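Under 12 alternatives the median log2 fold change of the 42 genes stayed within the spread between curcumol libraries, at -0.19 to 0.30, and the medians of library pairs moved by less than that spread. The number of the 42 past an adjusted p of 0.05 was 0 in edgeR, limma-voom and the other scalings and filters, 5 in DESeq2, and 0 to 5 when 1 library was left out. It was 1 without untreated replicate 1 (Cxcl10) and 5 without untreated replicate 2 (Cxcl9, Herc6, Ifit2, Samd9l and Siglec1). The count over all genes was 30, against 2630 with DESeq2 (1952 higher and 678 lower, against 10 and 20 in edgeR), 10 with total counts, 416 with no filter, 98 with a minimum of 1 CPM in 2 samples and 1661 with limma-voom. With 1 library left out it was 0 to 3531: 0 without curcumol replicate 2 (2383 at an unadjusted p under 0.05), 1 without curcumol replicate 1, 19 without curcumol replicate 3, 2950 without untreated replicate 1 and 3531 without untreated replicate 2. The median of all tested genes was 0.54 with DESeq2, 0.34 with total counts, 0.55 with no filter, 0.068 with the 1 CPM minimum and 0.32 with limma-voom, and 0.11 to 0.38 with 1 library left out. The cause of these changes was not tested. Total counts raised the median of all genes by 0.19, and changed the genes of the 42 without overlap to 6 higher and 3 lower, against 5 and 5 with TMM factors (added after the data were seen).

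The sign turned with total counts for Bst2 (0.13), Ifitm3 (0.060), Isg15 (0.090) and Parp9 (0.10), and with limma-voom for Herc6 (0.13). With 1 library left out it turned for 15 of the 42, whose ranges were -0.20 to 0.11 for Bst2, -0.24 to 1.20 for Cmpk2, -0.56 to 1.18 for Dhx58, -0.30 to 0.81 for Eif2ak2, -0.90 to 1.21 for Herc6, -0.26 to 1.14 for Ifi44, -0.44 to 0.15 for Ifitm3, -0.35 to 0.26 for Isg15, -0.027 to 1.31 for Oas2, -0.15 to 0.80 for Oas3, -0.77 to 0.35 for Oasl1, -0.42 to 0.21 for Parp9, -0.80 to 0.096 for Phf11d, -0.78 to 0.051 for Rsad2 and -0.40 to 0.0047 for Xaf1. The other 27 kept their sign in every such fit.

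With the replicate block, the samples numbered 1 and 2 in both groups were treated as pairs. Their deviations correlated at 0.0229 and -0.0302, and the labels give no shared source, so the numbers were not taken as a pairing. The replicate block called 45 genes and 0 of the 42, with a median of 0.30 for the 42 and 0.33 for all tested genes. It turned the sign of Oasl1 (0.13), Bst2 (0.11), Ifitm3 (0.14), Xaf1 (0.010), Isg15 (0.16), Herc6 (0.29) and Parp9 (0.17).

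The spread was estimated with 3 residual degrees of freedom. Without 1 untreated library, the remaining one is assumed to vary like the curcumol libraries.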
